A study of Mus musculus with 8 samples.

Results

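The genes described here were *Fasn*, *Elovl3*, *Elovl4*, *Elovl6*, *Scd1*, *Scd3*, *Fa2h*, *Dgat2*, *Soat1* and *Mc5r*, which build, extend, desaturate, hydroxylate and esterify fatty acids or mark the sebaceous gland. They were chosen by name, 10 of the 23358 genes of the deposited table, with their values in these libraries already known. All values of the members are therefore given as a description, with no test. RNA-seq was performed on tissue of the mouse incisor cervical loop, the growing end of the tooth, at 4 weeks of age. The cervical loop head (CLH) is the niche of dental epithelial stem cells, and the cervical loop tail (CLT) contains their progenies. In the *Med1* cKO mice (C57BL/6), Cre recombinase driven by the *Krt14* promoter deletes floxed exons 8 to 10 of *Med1* in *Krt14* expressing epithelia, whereas other cells of the tissue keep the gene. Ctrl mice were littermates of the same strain without Cre, and the mice came from 2 litters, with 6 cervical loop tissues pooled in a group. There were 4 groups of 2 libraries each, Ctrl CLH, cKO CLH, Ctrl CLT and cKO CLT.

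Sebaceous glands are lipid secreting appendages of the hair follicle. Their cells fill with triglycerides, wax esters and sterol esters and burst to release them as sebum. The fatty acids are made by fatty acid synthase, extended by ELOVL elongases, given a double bond by stearoyl-CoA desaturases and then joined to glycerol, cholesterol or fatty alcohols. The same elongation and hydroxylation steps provide the very long fatty acids of the ceramides that seal the epidermis. Enamel forming epithelium is not known as a lipid secreting tissue, and *Scd3*, *Mc5r* and *Elovl3* are classical sebocyte markers.

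The deposited values were RPKM, which divide the reads of a gene by its length and by the total of its library, so levels of different genes can be compared per length. Totals recovered from the steps in the values ranged from 26591615 to 34420183 reads per library. *Med1* was checked first, since it tests the labels. It measured 7.71 and 9.12 RPKM in the Ctrl CLH libraries and 7.10 and 7.03 in cKO CLH. It measured 4.83 and 8.71 in the Ctrl CLT libraries, with 9.15 and 8.96 in cKO CLT, so in CLT the libraries labelled cKO did not have less *Med1* RNA than those labelled Ctrl. The value covers the whole gene and all cells of the tissue, not the floxed exons alone. The ameloblast markers that define the enamel epithelium summed to between 12500 and 14300 RPKM in the CLH libraries, 84600 and 37500 in Ctrl CLT, but only 23.8 and 20.8 in cKO CLT. The Ctrl CLT libraries stood apart from each other. The median absolute difference between replicates on the log2(RPKM + 1) scale was 0.40 over all genes tested in Ctrl CLT. It was 0.09 to 0.11 in the other groups. For the 10 lipid genes it was 1.47 in Ctrl CLT against 0.10 to 0.13. Adding 1 shrinks this difference for genes with low values. Ctrl CLT 1 and Ctrl CLT 2 are therefore given apart throughout.

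Promoter sequence of 5 of the 10 genes (*Soat1*, *Elovl6*, *Elovl4*, *Fasn* and *Scd3*) was found in the RefSeq promoter table for GRCm38.p6, the mm10 build of the files, as 250 bases before and 50 after the start of transcription. The promoters shown are those of *Fasn* (fatty acid synthase), *Elovl4* (the highest cKO CLT level among the elongases) and *Scd3* (a sebocyte desaturase). These genes, like all of the 10, had higher levels in cKO CLT than in either Ctrl CLT library. The promoters of *Soat1* and *Elovl6* are not printed. Capitals mark matches, on either strand, to CCAAT (the NF-Y box), GGGCGG (the Sp1 box) or CACGTG (an E-box). Matches to these motifs may overlap each other. *Fasn* is at chr11:120824498-120824797 on the minus strand, *Elovl4* at chr9:83806256-83806555 on the minus strand and *Scd3* at chr19:44203038-44203337 on the plus strand.
Fasn: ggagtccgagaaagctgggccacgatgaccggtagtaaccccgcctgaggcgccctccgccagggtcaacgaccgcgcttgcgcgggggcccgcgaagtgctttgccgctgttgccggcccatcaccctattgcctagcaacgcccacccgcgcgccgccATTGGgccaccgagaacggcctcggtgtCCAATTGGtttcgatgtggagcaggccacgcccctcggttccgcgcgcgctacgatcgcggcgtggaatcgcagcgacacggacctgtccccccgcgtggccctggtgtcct
Elovl4: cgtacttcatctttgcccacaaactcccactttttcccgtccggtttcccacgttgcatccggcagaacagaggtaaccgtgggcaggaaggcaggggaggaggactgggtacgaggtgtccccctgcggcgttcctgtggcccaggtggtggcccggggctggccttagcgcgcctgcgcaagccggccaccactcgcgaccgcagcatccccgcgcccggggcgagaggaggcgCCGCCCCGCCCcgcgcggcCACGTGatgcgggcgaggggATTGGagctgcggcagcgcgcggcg
Scd3: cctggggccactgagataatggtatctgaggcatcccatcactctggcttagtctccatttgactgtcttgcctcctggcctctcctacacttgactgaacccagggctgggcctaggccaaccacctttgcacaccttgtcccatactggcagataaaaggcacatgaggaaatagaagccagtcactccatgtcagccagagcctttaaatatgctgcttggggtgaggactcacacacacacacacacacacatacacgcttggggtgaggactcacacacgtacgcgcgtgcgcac
*Fasn* held 3 matches, all to CCAAT, *Elovl4* held 4, and *Scd3* and *Elovl6* held 0. Of the 32851 promoters of this length in the table, CCAAT was found in 37.4%, GGGCGG in 35.7% and CACGTG in 7.15%. The sterol regulatory motif TCACNCCAC was found in 1.24% of all promoters and in 0 of these 5. A match is a string of letters and not a measured binding site.

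*Scd1* and *Scd3* are close relatives, and their coding sequences (1065 and 1077 bases, GENCODE M21) were 91.5% identical. The longest run of coding bases shared by both is printed because a read of 50 bases inside it, taken alone, matches both genes. The libraries were read as paired ends, so a mate outside the run can still place such a read. In *Scd1* it lies within chr19:44400363-44401865 on the minus strand and in *Scd3* within chr19:44235804-44238387 on the plus strand (mm10), in the fourth and the fifth exon of each gene. All 185 bases are in lower case because none differs.
Scd1 and Scd3: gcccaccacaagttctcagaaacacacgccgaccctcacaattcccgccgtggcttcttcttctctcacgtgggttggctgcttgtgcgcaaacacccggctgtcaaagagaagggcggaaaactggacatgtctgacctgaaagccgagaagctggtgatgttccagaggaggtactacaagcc
Of all windows of 50 bases in the longest coding transcript, 6.69% in *Scd3* and 4.66% in *Scd1* also occurred in other genes, mainly other *Scd* genes. The share was 4.4% for *Elovl6*, 0.853% for *Soat1* and 0 for the other 6 genes. The elongases were only 58.5% to 63.2% identical to each other over aligned coding bases. The *Scd1* and *Scd3* values are therefore uncertain to the extent that the counting split shared reads, which is not given in the sources used here, whereas the elongases could be told apart.

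*Fasn* (chr11:120805958-120824547) encodes the fatty acid synthase, which makes palmitate. *Fasn* measured 19.0 and 17.0 RPKM in Ctrl CLH, with 22.6 and 21.9 in cKO CLH. Its CLT values were 11.6 in Ctrl CLT 1, 11.7 in Ctrl CLT 2, with 23.0 and 26.8 in cKO CLT. Both cKO libraries were above both Ctrl libraries in each region, and *Fasn* was the only one of the 10 genes whose Ctrl CLT libraries were level, with a ratio of 0.997. The cKO minus Ctrl difference on the log2(RPKM + 1) scale was 1.03 ± 0.16 (SE) in CLT and 0.29 ± 0.08 in CLH. Levels in the cKO CLT libraries were close to those in cKO CLH, with a ratio of the means of 1.12, while the Ctrl CLT libraries lay below all 4 CLH libraries.

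The elongases were among the genes with the largest differences in CLT. *Elovl3* (chr19:46131899-46135694), an elongase of sebaceous gland, hair follicle and brown fat, had at most 1 read in each of the 4 CLH libraries. It measured 10.6 RPKM (583 reads) in Ctrl CLT 1, 0.16 RPKM (8 reads) in Ctrl CLT 2, with 36.8 and 34.2 RPKM in cKO CLT. The cKO CLT libraries were above both Ctrl CLT libraries, and Ctrl CLT 1 was well above Ctrl CLT 2 and CLH. On the log2 scale, cKO minus Ctrl was 3.31 ± 1.18 in CLT, and the cKO CLT mean of 35.5 ± 1.79 RPKM (SD, n = 2) was 3.35 times Ctrl CLT 1 and 222 times Ctrl CLT 2. No fold change is given in CLH, where both groups were at or under the floor of 3 reads. The annotated spans of *Elovl3* and its neighbour *Pitx3* on the other strand overlap by 10 bases, and *Pitx3* was at or below 0.129 RPKM in every library.

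*Elovl4* (chr9:83778692-83806305) makes the very long fatty acids of epidermal ceramides and retina. It measured 2.86 and 3.42 RPKM in Ctrl CLH, with 3.21 and 2.34 in cKO CLH. In CLT it measured 31.0 in Ctrl CLT 1, 3.02 in Ctrl CLT 2, with 111 and 97.6 in cKO CLT. The CLH groups overlapped, Ctrl CLT 2 lay within the CLH range, and the cKO CLT libraries were the highest of all 8. The log2 difference was 3.21 ± 1.06 in CLT and -0.14 ± 0.15 in CLH. The cKO CLT mean of 104 ± 9.53 RPKM was 3.37 times Ctrl CLT 1, 34.6 times Ctrl CLT 2 and 37.6 times the cKO CLH mean.

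*Elovl6* (chr3:129532386-129638493), which extends palmitate to stearate, had an appreciable level in every library. It measured 11.6 and 12.0 RPKM in Ctrl CLH, with 11.8 and 11.1 in cKO CLH. Its CLT values were 16.7 in Ctrl CLT 1, 6.55 in Ctrl CLT 2, with 64.0 and 59.5 in cKO CLT. The Ctrl CLT libraries lay on either side of the CLH level, with Ctrl CLT 2 the lowest of all, and the cKO CLT libraries were above both. On the log2 scale, cKO minus Ctrl was 2.44 ± 0.45 in CLT and -0.05 ± 0.08 in CLH, and the cKO CLT mean was 3.70 times Ctrl CLT 1 and 9.42 times Ctrl CLT 2. The annotation places an antisense gene over part of *Elovl6*, and the strand setting of the counting is not given in the sources used here.

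Stearoyl-CoA desaturases turn saturated into monounsaturated fatty acids. *Scd1* (chr19:44394450-44407709), which is used in many tissues, measured 33.6 and 32.1 RPKM in Ctrl CLH, with 36.5 and 31.2 in cKO CLH. In CLT it measured 40.7 in Ctrl CLT 1, 33.3 in Ctrl CLT 2, with 119 and 112 in cKO CLT. The first 6 of these libraries spanned a narrow range and the cKO CLT libraries stood clear above it, so that *Scd1*, unlike the elongases, hardly separated the Ctrl CLT libraries. The log2 difference was 1.62 ± 0.17 in CLT and 0.04 ± 0.09 in CLH. *Scd3* (chr19:44203288-44244016), found chiefly in sebocytes, measured 0.236 to 0.268 RPKM over the 4 CLH libraries, 3.54 in Ctrl CLT 1, 0.390 in Ctrl CLT 2, with 11.4 and 11.5 in cKO CLT. Its order of libraries was that of *Elovl3*, with Ctrl CLT 1 between Ctrl CLT 2 and cKO CLT. On the log2 scale, cKO minus Ctrl was 2.31 ± 0.62 in CLT and 0.00 ± 0.04 in CLH. The CLH values came from 22 to 32 reads, and adding 1 to RPKM shrinks both the difference and its SE at such levels. The ratio of the cKO CLT mean to Ctrl CLT 1 was 2.83 for *Scd1* and 3.23 for *Scd3*, and to Ctrl CLT 2 it was 3.47 and 29.3.

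*Fa2h* (chr8:111345138-111393821) adds the hydroxyl group of hydroxylated sphingolipids and sebum lipids. It measured 0.315 and 0.627 RPKM in Ctrl CLH, with 0.309 and 0.448 in cKO CLH. Its CLT values were 9.23 in Ctrl CLT 1, 0.0755 (5 reads) in Ctrl CLT 2, with 31.0 and 31.8 in cKO CLT. The CLH groups overlapped, and Ctrl CLT 2 was below all CLH libraries while Ctrl CLT 1 was above them. The log2 difference was 3.29 ± 1.15 in CLT and -0.09 ± 0.12 in CLH. The cKO CLT mean was 3.40 times Ctrl CLT 1 and 416 times Ctrl CLT 2. Ctrl CLT 1 was 122 times Ctrl CLT 2, the widest gap between these libraries among the 10 genes.

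**Figure D1:**
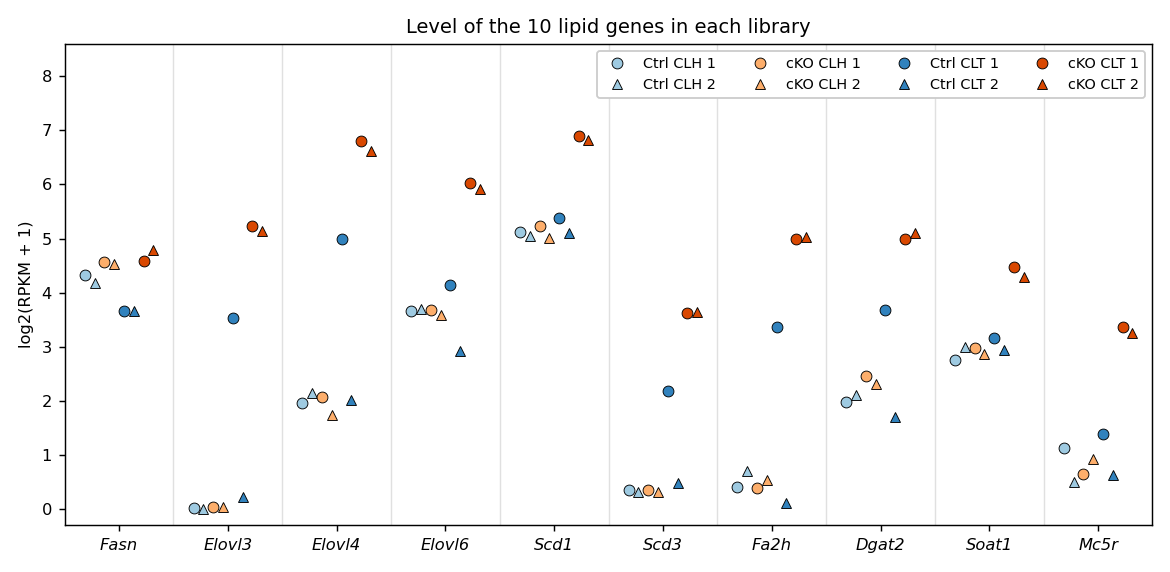
Level of each gene as log2(RPKM + 1) in the 8 libraries, 1 point per library, with circles for replicate 1 and triangles for replicate 2. Both cKO CLT libraries lie above both Ctrl CLT libraries for all 10 genes, and Ctrl CLT 1 lies between Ctrl CLT 2 and cKO CLT for all but *Fasn*.

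The esterifying enzymes store fatty acids as neutral lipid. *Dgat2* (chr7:99153663-99182713), which catalyses the last step of triglyceride synthesis, measured 2.93 and 3.27 RPKM in Ctrl CLH, with 4.46 and 3.95 in cKO CLH. In CLT it measured 11.7 in Ctrl CLT 1, 2.22 in Ctrl CLT 2, with 30.8 and 33.3 in cKO CLT. The cKO libraries were above the Ctrl libraries in each region, with log2 differences of 2.37 ± 0.71 in CLT and 0.34 ± 0.10 in CLH. *Soat1* (chr1:156428108-156474328), which esterifies cholesterol, measured 5.77 to 6.92 RPKM over the 4 CLH libraries, 7.94 in Ctrl CLT 1, 6.70 in Ctrl CLT 2, with 21.2 and 18.5 in cKO CLT. Like *Scd1*, *Soat1* was nearly level over 6 libraries and higher only in cKO CLT, by 1.33 ± 0.17 on the log2 scale. In CLH this value was 0.05 ± 0.12. The ratio of the cKO CLT mean to Ctrl CLT 1 was 2.74 for *Dgat2* and 2.50 for *Soat1*, and to Ctrl CLT 2 it was 14.4 and 2.96.

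*Mc5r*, on chromosome 18, encodes the melanocortin receptor through which peptide hormones act on sebaceous glands, and was the only receptor among the 10 genes. It measured 1.18 and 0.416 RPKM in Ctrl CLH, with 0.561 and 0.903 in cKO CLH, from 13 to 47 reads a library. Its CLT values were 1.62 in Ctrl CLT 1, 0.550 in Ctrl CLT 2, with 9.27 and 8.58 in cKO CLT, from 302 and 272 reads. The CLH groups overlapped widely and the cKO CLT libraries stood above the other 6. On the log2 scale, cKO minus Ctrl was 2.30 ± 0.32 in CLT and -0.03 ± 0.23 in CLH. The cKO CLT mean was 5.52 times Ctrl CLT 1, the largest ratio to that library among the 10 genes, and 16.2 times Ctrl CLT 2. The table gives *Mc5r* a length of 1162 bases and *Soat1* one of 4785, against 3904 and 8371 for the longest coding transcripts in GENCODE M21, so the level of these genes relative to the others depends on the annotation.

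The comparison in CLT sets cKO against Ctrl in the whole dissected tissue, of which the epithelial progenies are a part. Markers of other tissues also differed there between the groups, as given below. All 10 genes had a log2 difference above 0, from 1.03 (*Fasn*) to 3.31 (*Elovl3*), with a median of 2.34 against -0.01 over all 14148 genes tested. A value above 0 was found for 49.5% of all genes tested. Both cKO libraries exceeded both Ctrl libraries for 10 of 10 genes, a pattern that 37.2% of all genes tested showed, and 11.5% of all genes tested had a log2 difference of at least 1, as did all 10 here. Since the genes were chosen with this contrast in view, nothing is read from these counts. In bulk tissue, more cells of a kind and more RNA per cell cannot be told apart.

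The size of the CLT difference depended on which Ctrl CLT library served as the reference. With Ctrl CLT 1 alone, the log2 differences ranged from 1.03 (*Fasn*) to 1.92 (*Mc5r*). With Ctrl CLT 2 alone they ranged from 1.03 (*Fasn*) to 4.97 (*Elovl3*). The median over the 10 genes was 1.57 against Ctrl CLT 1 and 3.11 against Ctrl CLT 2. All 10 genes kept a positive difference with either. By limma with Benjamini-Hochberg adjustment over all genes tested, at an adjusted p of 0.05, the number of genes called higher across the whole table was 11 with both Ctrl libraries, 4445 without Ctrl CLT 1 and 4121 without Ctrl CLT 2, since the lone Ctrl library is then assumed to vary as little as the cKO libraries. It was 0 without cKO CLT 1 and 0 without cKO CLT 2.

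**Figure D2:**
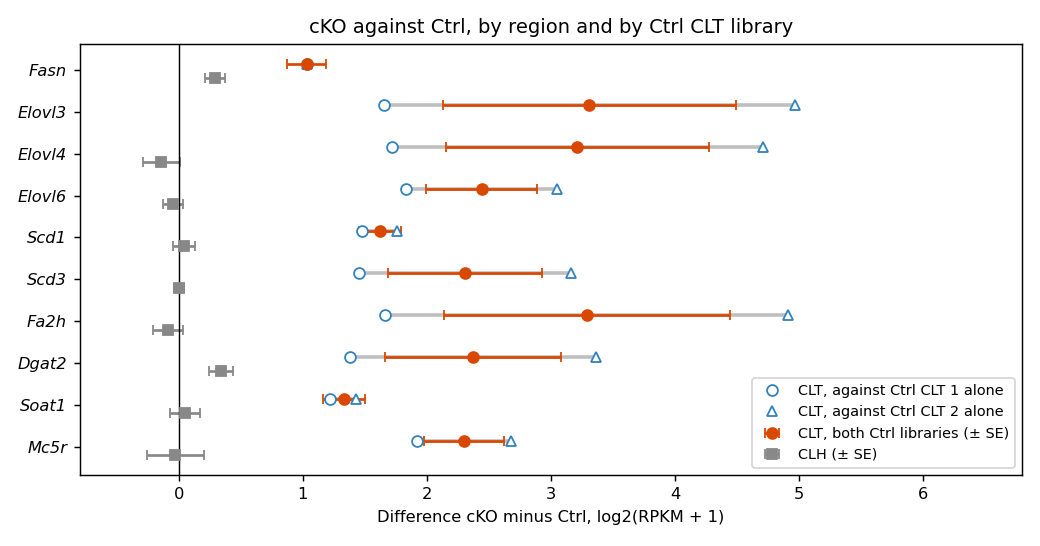
Difference cKO minus Ctrl on the log2(RPKM + 1) scale for each gene, with SE bars, in CLT (filled circles) and CLH (grey squares, without *Elovl3*, which was at the floor there). Open circles and triangles give the CLT difference against Ctrl CLT 1 alone and Ctrl CLT 2 alone, which lie far apart for *Elovl3*, *Elovl4* and *Fa2h* and close together for *Fasn*, *Scd1* and *Soat1*.

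In CLH the comparison asks whether the stem cell tissue already differed. Leaving out *Elovl3*, which was at the floor of 3 reads, the log2 differences of the other 9 genes ranged from -0.14 (*Elovl4*) to 0.34 (*Dgat2*), with 5 above 0, 4 below and a median of 0.00. Of the 13897 genes tested that were above this floor, 48% were above 0, with a median of -0.01. A log2 difference of at least 1 was found for 0 of the 9 genes and 0.115% of the 13897. Both cKO CLH libraries exceeded both Ctrl CLH libraries for 2 genes, *Fasn* and *Dgat2*, against 20.1% of the 13897. Limma called 0 genes of the whole table in either direction in CLH, 0% of those tested, and voom on the recovered reads also called 0. At an unadjusted p under 0.05 limma found 684 genes (4.83%) above and 343 (2.42%) under the Ctrl level.

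The difference of the cKO effect between the regions, again without *Elovl3*, was above 0 for the other 9 genes, from 0.73 ± 0.16 (*Fasn*) to 3.37 ± 1.32 (*Fa2h*) on the log2 scale. The lowest ratios of Ctrl CLT 1 to Ctrl CLT 2, from 0.997 to 2.94, were those of *Fasn*, *Soat1*, *Scd1*, *Elovl6* and *Mc5r*, against 5.28 to 122 for the others, and *Elovl4* and *Fa2h* had SEs above 1. This difference contains the contrast used to choose the genes, so no test is given.

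The order of the levels also differed between groups. In Ctrl CLH the highest mean RPKM was that of *Scd1* (32.9), followed by *Fasn* (18.0), *Elovl6* (11.8), *Soat1* (6.35), *Elovl4* (3.14), *Dgat2* (3.1), *Mc5r* (0.796), *Fa2h* (0.471), *Scd3* (0.252) and *Elovl3* (0.00773). Libraries overlapped between *Elovl4* and *Dgat2* and between *Mc5r* and *Fa2h*, so these neighbours were not separated. In cKO CLH only *Dgat2* and *Elovl4* changed places. In cKO CLT the order was *Scd1* (115), *Elovl4* (104), *Elovl6* (61.7), *Elovl3* (35.5), *Dgat2* (32.1), *Fa2h* (31.4), *Fasn* (24.9), *Soat1* (19.9), *Scd3* (11.4) and *Mc5r* (8.93). There only *Dgat2* and *Fa2h* overlapped, and all 3 elongases stood above *Fasn*. In Ctrl CLT every pair of neighbours below *Scd1* overlapped, because the libraries of this group differed so much.

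The summed level of the 10 genes was 76.1 to 86.6 RPKM over the CLH libraries, 145 in Ctrl CLT 1, 64.6 in Ctrl CLT 2, with 457 and 434 in cKO CLT. Ctrl CLT 1 exceeded all 4 CLH libraries for 9 of the 10 genes, all but *Fasn*, against 28.0% of all genes tested. Ctrl CLT 2 exceeded them for 2 (*Elovl3* and *Scd3*), lay within their range for 4 and below it for 4 (*Elovl6*, *Fa2h*, *Fasn* and *Dgat2*), against 29.9% above, 24.9% within and 45.3% below over all genes tested. The place of Ctrl CLT 1 on the way from Ctrl CLT 2 (0%) to the cKO CLT mean (100%) was computed after the data had been seen. It was 27.6% to 31.8% for *Elovl3*, *Elovl4*, *Fa2h*, *Scd3* and *Dgat2*, 18.3% for *Elovl6*, 12.7% for *Mc5r*, 9.41% for *Soat1*, 9.12% for *Scd1* and -0.287% for *Fasn*. Over the 821 genes of the table with a cKO CLT mean of at least 5 RPKM and at least 5 times Ctrl CLT 2, the median place was 31.2% and the quartiles were 27.5% and 34.9%. Of the 7 lipid genes in that set, *Elovl6* and *Mc5r* lay below the 10th percentile of 24.0% and the other 5 between it and the 90th percentile of 39.7%.

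**Figure D3:**
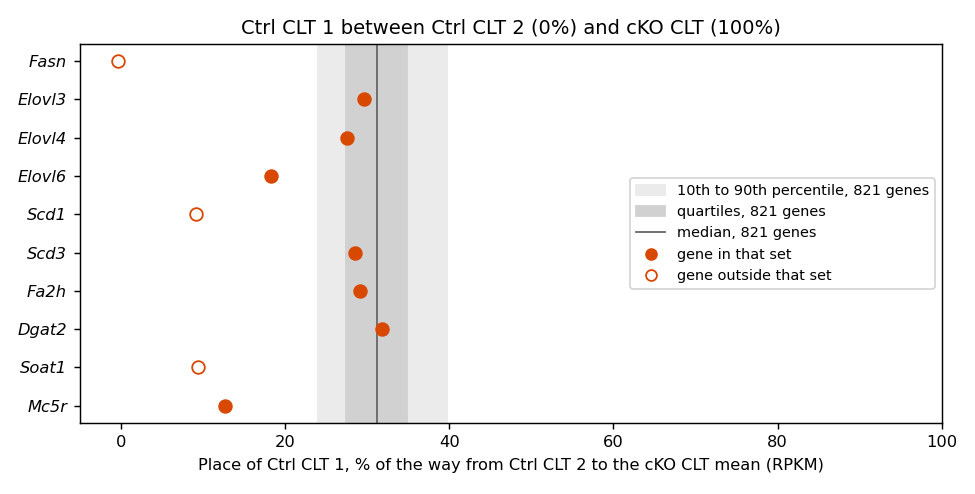
Place of Ctrl CLT 1 for each gene, in percent of the RPKM distance from Ctrl CLT 2 to the cKO CLT mean, over shading for the 821 genes that were high in cKO CLT. The 5 genes *Elovl3*, *Elovl4*, *Scd3*, *Fa2h* and *Dgat2* lie close to the median of 31.2%, and *Mc5r* and *Elovl6* lie to the left of the shading. *Fasn*, *Scd1* and *Soat1* (open points) also lie to its left. They do not belong to the 821 genes, because their cKO CLT mean was less than 5 times Ctrl CLT 2.

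The 9 sebaceous gland markers outside the 10 genes summed to 3.93 to 5.0 RPKM in CLH, 94.9 in Ctrl CLT 1, 5.77 in Ctrl CLT 2, with 276 and 294 in cKO CLT. Of these, 9 of 9 were higher in both cKO CLT libraries than in both Ctrl CLT libraries, against 37.2% of all genes tested. Only 7 of the 9 passed the filter that defines the genes tested, and *Mogat1* and *Plin5* did not. Nothing is read from this count. *Awat1*, a wax ester synthase of sebocytes, had no read in CLH or Ctrl CLT 2 and measured 5.10 RPKM in Ctrl CLT 1, against 14.5 and 14.7 in cKO CLT. *Far2*, which makes the fatty alcohols of wax, measured 5.59 in Ctrl CLT 1, 1.57 in Ctrl CLT 2, with 20.5 and 19.9 in cKO CLT. In contrast *Mogat1* and *Plin5* stayed below 1 RPKM in every library. Of this set, *Krt79*, a keratin of the sebaceous duct and upper hair follicle, had the highest level, 200.4 and 219 RPKM in cKO CLT, 69.4 in Ctrl CLT 1 and 0.144 in Ctrl CLT 2.

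Hair shaft and inner root sheath markers, led by *Krt71*, summed to 3830 RPKM in Ctrl CLT 1, 14.8 in Ctrl CLT 2, with 11300 and 12300 in cKO CLT, with 10.6 to 13.9 in CLH. Fat cell markers, led by *Fabp4*, summed to 272 in Ctrl CLT 1, 16.0 in Ctrl CLT 2, with 737 and 684 in cKO CLT. Of these, 10 of 10 were higher in both cKO CLT libraries than in both Ctrl CLT libraries, against 37.2% of all genes tested. *Plin1*, *Lep*, *Retn* and *Pck1* reached 1 RPKM only in cKO CLT, so passing the filter fixed their order. Nothing is read from this count. Among the fat cell markers, the defining adipocyte gene *Adipoq* measured 2.50 in Ctrl CLT 1, 0 in Ctrl CLT 2, with 7.30 and 6.76 in cKO CLT. *Dgat2*, *Scd1*, *Fasn* and *Elovl6* are used by fat cells as well as by sebocytes. Cornified epidermis markers (219, 3.69, and 660 and 671 in the same order), melanocyte markers (130, 8.62, and 401 and 402) and skeletal muscle markers (778, 57.5, and 2170 and 2350) had this order too. Basal epithelium markers summed to 1320 in Ctrl CLT 1, 727 in Ctrl CLT 2, with 1820 and 2080 in cKO CLT. Leukocyte (116, 159, and 95.6 and 90.6), erythroid (194, 231, and 133 and 127) and endothelial markers (53.0, 82.6, and 49.1 and 48.9) were highest in Ctrl CLT 2 among the CLT libraries, as were odontoblast and bone markers (2150, 2500, and 378 and 472) and mesenchyme markers (1500, 1870, and 1650 and 1830). CLH libraries reached higher sums for leukocyte (162), odontoblast and bone (3060) and mesenchyme markers (2030). Members of a list did not all follow its sum. In the odontoblast and bone list, *Col1a1* made up nearly all of the cKO CLT sum (1067, 1335, and 376 and 472). *Dspp*, *Dmp1*, *Bglap*, *Ibsp* and *Phex* of that list measured 14.4 to 644 RPKM in Ctrl CLT and at most 0.686 RPKM in cKO CLT. *Pecam1*, an endothelial adhesion molecule, was highest in cKO CLT (18.5, 22.4, and 25.4 and 24.2), unlike *Emcn* of the same list (15.6, 30.5, and 4.54 and 4.22), and *Col3a1*, a fibrillar collagen of the mesenchyme list, was also highest there (526, 456, and 874 and 979), unlike *Vim* (266, 508, and 128 and 132). The part of these tissues in the levels of the 10 genes was not tested.

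**Figure D4:**
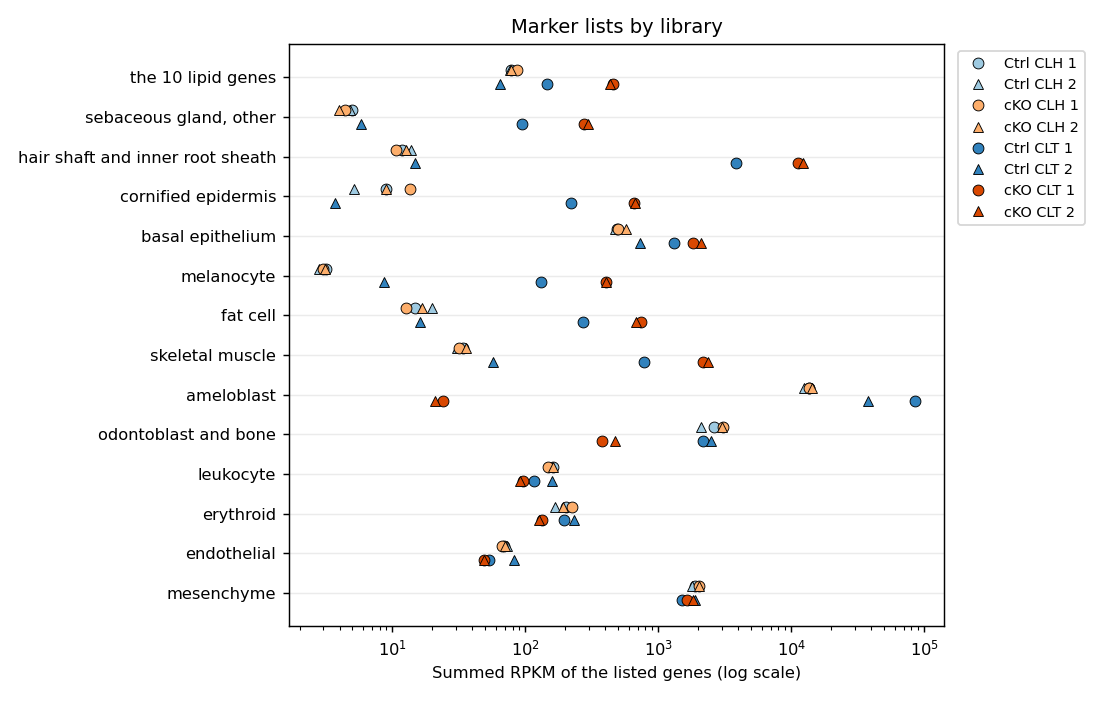
Summed RPKM of each marker list (log axis) in the 8 libraries, with the sum of the 10 lipid genes at the top. Sebaceous, hair, epidermal, melanocyte, fat cell and muscle lists share the order Ctrl CLT 2, Ctrl CLT 1, cKO CLT, while ameloblast markers sum to 84600 and 37500 in Ctrl CLT and to 23.8 and 20.8 in cKO CLT.

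Across the 8 libraries 9 of the 10 genes, all but *Fasn*, followed each other closely, as a description over points of which 2 cKO CLT libraries were the extreme. Pearson's r of log2(RPKM + 1) ranged from 0.26 to 1.0 over the 45 pairs, with a median of 0.94, and without *Fasn* the lowest r of 36 pairs was 0.92. The genes outside the 10 most like *Elovl3* were *Gata3*, *Tyrp1* and *Elf5* (r of at least 0.9997), those most like *Fa2h* included *Dnase1l2* and *Ovol1*, and those most like *Scd3* were *Trpv3*, *Zfp750* and *Sypl2*. *Elovl4* was most like *Ms4a10*, *Itgb1bp2* and *Casq1*, *Elovl6* most like *Mrps18b*, *Efnb2* and *Slc25a37*, and *Dgat2* most like *Il20rb*, *H2-Q8* and *Grhl3*. *Scd1* was most like *Txnrd1*, *Uchl3* and *Prkar2a*, *Soat1* most like *Plcxd2*, *Tmem229a* and *Ubqln1*, and *Mc5r* most like *Fam169b*, *Tnf* and *Lrrc47*. *Fasn* had a pattern of its own, most like *Rcc2*, *Supv3l1* and *Mgat5b*, with 43 genes above an r of 0.95, against 960 to 1660 genes for each of the other 9. The 8 points share their libraries, and so many genes were this similar that the choice of the nearest genes rests on the last digits of r.

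The other genes of lipid synthesis are given by pathway, in lists drawn up with earlier results of these data known. Of 27 tested genes for fatty acid synthesis, elongation and desaturation, 18 had a log2 difference above 0 in CLT and 9 below, with a median of 0.37. Limma called 0 of them, against 0.0777% of all genes called higher, and voom called 0. The unadjusted p was under 0.05 for 10 genes in the upward and 1 in the downward direction, against 19.8% and 16.4% of all genes tested. Without Ctrl CLT 1 or without Ctrl CLT 2, with the lone Ctrl library assumed to vary like the cKO libraries, up to 14 were called higher and up to 9 lower. In these fits 31.4% and 29.1% of all genes were called higher and 38.1% and 23% lower. With all 8 libraries in 1 fit, 13 were called higher and 3 lower, against 23.7% and 20% of all genes tested. The highest value was that of *Elovl7*, another elongase, at 2.64 ± 0.74, with 5.31 RPKM in Ctrl CLT 1, 0.519 in Ctrl CLT 2, with 19.2 and 17.3 in cKO CLT. The lowest was that of *Hacd4*, a dehydratase of the elongation cycle, at -1.61 ± 0.61, with 2.70, 10.9, and 1.25 and 1.11 RPKM in the same order. *Elovl7* thus had the library order of *Elovl3* and *Hacd4* the opposite one.

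Of 29 tested genes for triglyceride, wax and sterol ester synthesis and of sebocytes, 23 had a difference above 0 and 6 below, with a median of 1.5. Limma called 0 and voom 0, and 17 upward and 4 downward differences had an unadjusted p under 0.05, against the same 19.8% and 16.4% of all genes tested. The extremes were *Krt79* at 4.55 ± 2.09 and *Far1*, the widespread counterpart of *Far2*, at -1.27 ± 0.29, with 21.0 RPKM in Ctrl CLT 1, 35.3 in Ctrl CLT 2, with 11.1 and 10.4 in cKO CLT. Without Ctrl CLT 2 the median of this list was 1.0, and without Ctrl CLT 1 it was 1.83.

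Of the 21 genes of cholesterol synthesis, 20 had a difference above 0 in CLT, with a median of 1.03. In CLT 20 of 21 were higher in both cKO libraries than in both Ctrl libraries, against 37.2% of all genes tested. Limma called 0 and voom 0, and 19 upward and 0 downward differences had an unadjusted p under 0.05, against 19.8% upward over all genes tested. Leaving out either Ctrl CLT library, 19 of the 21 were called higher, against the 31.4% and 29.1% of all genes given above. *Tm7sf2*, a sterol reductase, was lowest at -0.03 ± 0.16, a value that turned positive under median-of-ratios scaling. In the interaction with region, 11 of the 21 genes were called higher in CLT and 0 lower, against 8.05% and 9.58% of all genes tested, a count of 11 that went to 0 without Ctrl CLH 1, Ctrl CLH 2, cKO CLH 2, cKO CLT 1 or cKO CLT 2, and to 3 without cKO CLH 1.

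Of 20 tested regulators of lipid synthesis, 15 had a difference above 0 in CLT and 5 below, with a median of 0.60. Limma called 0 and voom 0, and 10 upward and 2 downward differences had an unadjusted p under 0.05, where 19.8% and 16.4% of all genes did. *Cebpa*, a transcription factor of fat cells and sebocytes, was highest at 2.48 ± 0.83, and *Ppargc1a*, a coactivator of oxidative metabolism, was lowest at -1.24 ± 0.20. *Pparg*, the nuclear receptor of sebocyte and fat cell differentiation, measured 2.0 and 1.9 RPKM in Ctrl CLT, with 4.50 and 4.47 in cKO CLT, a log2 difference of 0.90 ± 0.17. Like *Scd1* and *Soat1*, *Pparg* did not separate the Ctrl CLT libraries. Leaving out Ctrl CLT 1 gave the regulators a median log2 difference of 0.78, whereas leaving out Ctrl CLT 2 gave 0.41.

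Of 21 tested genes of ceramide synthesis, 13 had a difference above 0 in CLT and 8 below, with a median of 0.09, and 6 upward and 2 downward differences had an unadjusted p under 0.05, where 19.8% and 16.4% of all genes did. *Cers2*, the ceramide synthase for very long acyl chains, was the only gene of any of these lists called in CLT. It fell from 56.4 and 65.4 RPKM in Ctrl CLT to 23.7 and 22.8 in cKO CLT, by 1.35 on the log2 scale (SE 0.15, limma, adjusted p = 0.049), where 1.68% of all genes were called lower. This call was lost with voom, without a variance trend, with robust eBayes, without a filter on low values, without cKO CLT 1 and without cKO CLT 2, at adjusted p-values of 0.05 to 0.46 (limma). *Cers3*, the synthase for the ultra long ceramides of the epidermis, was highest at 2.50 ± 0.75, with 6.69 RPKM in Ctrl CLT 1, 0.821 in Ctrl CLT 2, with 20.8 and 19.5 in cKO CLT. *Cers1* had no read in any library. With each CLT library left out in turn, the median of the ceramide list ranged from 0.06 to 0.16.

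**Figure D5:**
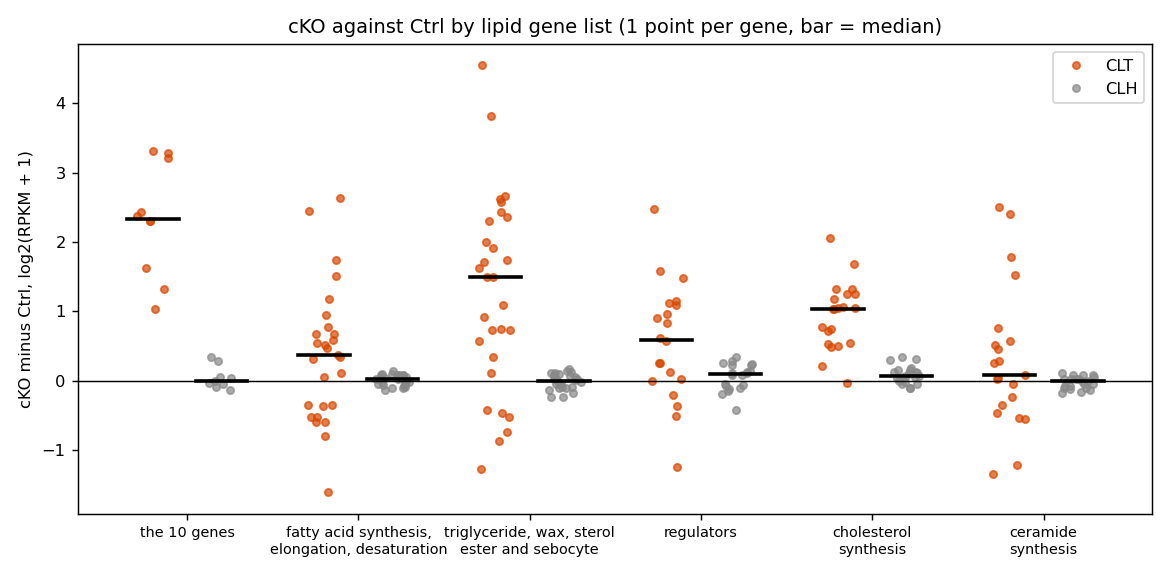
Difference cKO minus Ctrl on the log2(RPKM + 1) scale for every tested gene of the 10 and of the 5 lipid lists, in CLT and CLH (there without genes at the floor of 3 reads), with bars at the medians. In CLT the cholesterol list is almost entirely above 0 (median 1.03) and the ceramide list is split (median 0.09), while in CLH all lists lie close to 0.

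In CLH limma and voom called 0 genes of each of the 5 lists, and the list medians lay between -0.01 and 0.10. Over all 5 lists, 4 upward and 2 downward differences had an unadjusted p under 0.05, against 4.83% and 2.42% of all genes tested. The extremes in CLH were *Acly*, which supplies acetyl-CoA, at 0.14 ± 0.06 and *Hacd3* at -0.14 ± 0.07 for fatty acid synthesis, and *Agpat1* at 0.17 ± 0.07 and *Lrig1* at -0.24 ± 0.16 for triglyceride and sebocyte genes. They were *Srebf1*, the master regulator of fatty acid synthesis, at 0.35 ± 0.06 and *Thrsp* at -0.42 ± 0.06 among the regulators. *Thrsp* measured 0.504 and 0.430 RPKM in Ctrl CLH (18 and 12 reads), with 0.0571 and 0.130 in cKO CLH (2 and 4 reads). Its value thus rests on few reads, near the floor of 3. *Srebf1* measured 16.5 and 16.0 RPKM in Ctrl CLH, with 20.4 and 21.5 in cKO CLH, without overlap. For cholesterol synthesis they were *Mvk* at 0.34 ± 0.08 and *Acat2* at -0.11 ± 0.08, and for ceramide synthesis *Ormdl3* at 0.11 ± 0.05 and *Cers4* at -0.18 ± 0.12.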

How the data were processed

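RNA-seq of 8 libraries was used, 2 each of Ctrl CLH, cKO CLH, Ctrl CLT and cKO CLT, grouped by the sample labels. According to the paper, libraries were made with TruSeq chemistry and read as paired ends of 50 bases. The submitters' processing notes name FastQC 0.72, Trim Galore 0.4.3.1, STAR 2.6.0b-1, featureCounts 1.6.3 and DESeq2 2.11.40.2 with the mm10 build. The authors deposited 1 table of RPKM values for 23358 genes with a length for each gene. The annotation, the strand setting and the total behind the RPKM are not given in the sources used here. Some names (26, on 69 rows in all) were repeated and were not used. The number of unused sample columns was 0.

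Multiplied by gene length, RPKM fell on whole steps within every library (100% of the values checked, tolerance 0.05 reads, up to 2000 steps), which gave the reads behind each value. Floors of 3 reads cover counting error only. The 14148 genes that reached 1 RPKM in 2 or more libraries were tested as log2(RPKM + 1) with lmFit and trended eBayes of limma 3.58.1 (R 4.3.3), each region within its 4 libraries and the difference between regions as an interaction over all 8, adjusted after Benjamini and Hochberg over all genes tested and called under 0.05. Fold changes are on the log2(RPKM + 1) scale, which understates changes of low genes. The paper describes biological duplicates from 2 litters with 6 tissues pooled in a group, but the labels tie no library to a litter or to mice, and p-values measure only the spread between these libraries. With 2 libraries on each side the smallest exact permutation p is 0.333, so none was run. On simulated data with 200 genes changed 2-fold (dispersion 0.01, 3 draws, 13650 to 13654 genes tested), the CLT fit recovered 195 to 199 and also called 23 to 52 unchanged genes, and it recovered 142 to 149 in the interaction with 10 to 20 unchanged genes. In CLH, where none was changed, 2 to 18 were called. In these simulated data the unchanged genes were a larger share of the CLT and interaction calls than the threshold of 0.05 allows for. Calls near that threshold are therefore uncertain. All simulated libraries had the same dispersion, without the wider spread of the Ctrl CLT libraries. That spread was a median absolute difference between replicates of 0.40 on the log2(RPKM + 1) scale, against 0.09 to 0.11 in the other groups. The simulation therefore does not show what share of changes the CLT or interaction fit could find in the real data.

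The 10 members and the lists (5 lipid pathways, sebaceous gland markers and 12 marker lists of other tissues) were chosen with earlier results of these data known. Named one by one were the members, *Med1*, of each lipid list the genes past the threshold or else the highest and lowest in each region and any gene without a read, of each marker list the highest gene, and the 3 genes most like each member. Genes this rule named that are missing from the text are not reported here. *Adipoq*, *Pparg*, *Pecam1*, *Emcn*, *Col3a1*, *Vim* and the sebaceous markers given with values were picked from the lists after their values were seen. *Dspp*, *Dmp1*, *Bglap*, *Ibsp* and *Phex* were named in the same way. Some list genes (4 of fatty acid, 1 of cholesterol and 8 of ceramide synthesis) stood under older symbols and were matched through RefSeq. Gene models were those of GENCODE M21 (mm10), aligned with Biopython. Alternatives were other pseudocounts, scalings, filters and fits, voom on the recovered reads, a replicate block and each library left out in turn.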

Additional observations from a re-analysis of the deposited data

Results flagged for a closer look

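The cKO effect differed between CLT and CLH, by the interaction over all 8 libraries (limma, Benjamini-Hochberg adjustment over all genes tested), for 8 lipid genes named by rule. The rule took the highest and lowest genes of a list in CLT or in CLH, and the interaction is the difference of these contrasts, so the choice favoured such calls. *Hacd3*, *Thrsp*, *Acat2* and *Cers4* were the lowest of their lists in CLH, *Acly* and *Agpat1* the highest in CLH, and *Cers2* and *Ppargc1a* the lowest in CLT. Over the whole lists the interaction called 5 genes higher and 1 lower of 27 (fatty acid synthesis), 5 and 1 of 29 (triglyceride and sebocyte), 6 and 2 of 20 (regulators), 11 and 0 of 21 (cholesterol) and 1 and 1 of 21 (ceramide), against 8.05% and 9.58% of all genes tested. Lower in CLT relative to CLH were *Cers2* (difference of the log2 effects -1.22, adjusted p = 0.007), *Ppargc1a* (-1.12, adjusted p = 0.021) and *Agpat1* (-1.05, adjusted p = 0.024), an enzyme of glycerolipid synthesis. Higher in CLT relative to CLH were *Cers4* (1.70, adjusted p = 0.022), *Thrsp* (1.38, adjusted p = 0.029), *Hacd3* (0.81, adjusted p = 0.019), *Acat2* (0.65, adjusted p = 0.031) and *Acly* (0.54, adjusted p = 0.033). *Cers2* and *Cers4* are ceramide synthases with different chain preferences. *Cers4* measured 12.8 and 7.74 RPKM in Ctrl CLT, with 30.2 and 30.9 in cKO CLT, while *Thrsp* stayed at or under 2.51 RPKM in every library. For *Acly*, *Hacd3* and *Acat2* the Ctrl CLT libraries differed little, with 36.4 and 35.2, 25.1 and 22.4, and 11.4 and 11.7 RPKM. The direction of all 8 held in every alternative, and 5 of them (*Hacd3*, *Agpat1*, *Ppargc1a*, *Cers2* and *Cers4*) were called in all 10 other settings. *Acat2* was called in 9 of 10, *Acly* in 8 of 10 and *Thrsp* in 7 of 9. Without any single CLH or cKO CLT library, 0 of the 8 were called, with adjusted p-values from 0.051 (*Cers2*) to 0.14 (*Acly* and *Acat2*), and without Ctrl CLT 1 or without Ctrl CLT 2 all 8 were called (limma).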

How the results depend on the processing

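All 10 lipid genes kept a positive CLT difference in each of the 16 alternatives run for them, and their median in CLT was 1.57 to 3.11 with each CLT library left out in turn (lowest without Ctrl CLT 2, highest without Ctrl CLT 1). In CLH their differences were near 0. There the sign changed in 1 of 16 alternatives for *Elovl4*, *Fa2h* and *Scd1* and in 2 for *Soat1* and *Mc5r*. For *Scd3* it changed in 8 of 16, over a range from -0.02 to 0.02. The main counts were 11 genes higher and 237 lower in CLT, 0 and 0 in CLH, and 1139 and 1355 for the interaction. Where a value below differs from these, the cause was not tested unless stated.

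With no filter on low values, 0 genes were called higher and 3 lower in CLT, and voom gave 0 and 18. With all 8 libraries in 1 fit the counts were 3352 and 2831, and the lists had 13 higher and 3 lower (fatty acid synthesis), 19 and 5 (triglyceride and sebocyte), 11 and 2 (regulators), 19 higher (cholesterol) and 7 and 3 (ceramide). Median-of-ratios scaling called 1 cholesterol gene higher in CLT. The call of *Cers2* in CLT was lost, leaving 0 ceramide genes lower, with no filter, no variance trend, robust eBayes and voom. Robust eBayes called 2 genes higher and 2 lower in CLH. For the interaction, voom called 3 triglyceride and sebocyte genes higher and 2 fatty acid synthesis genes lower, and median-of-ratios scaling and quantile normalization each called 2 triglyceride and sebocyte genes lower.

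The replicate numbers of the labels were shared between groups, but nothing in the labels ties a number to a litter, and the correlations of the deviations of same-numbered libraries ranged from -0.19 to 0.31, so the numbers were not taken to pair the libraries. With the number as a replicate block, 888 genes were called higher and 856 lower in CLT, and the lists had 4 (fatty acid synthesis), 11 (triglyceride and sebocyte), 3 (regulators), 7 (cholesterol) and 3 (ceramide) higher. In the interaction the block gave 513 genes higher, with 3 fatty acid synthesis and 2 triglyceride and sebocyte genes higher, 0 fatty acid synthesis genes lower and 1 regulator lower.

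With 1 library left out, its group's remaining library is assumed to vary like the others, and the spread between the Ctrl CLT libraries enters or leaves the fit. The counts in CLT then ranged from 0 to 4445 higher and from 11 to 5393 lower. By list they ranged from 0 to 14 higher and 0 to 9 lower (fatty acid synthesis), 0 to 22 and 0 to 6 (triglyceride and sebocyte), 0 to 13 and 0 to 3 (regulators), 0 to 19 higher (cholesterol), and 0 to 9 and 0 to 6 (ceramide). The list medians in CLT ranged from 1.0 to 1.83 (triglyceride and sebocyte) and from 0.83 to 1.13 (cholesterol). Interaction counts ranged from 2 to 4028 higher and from 196 to 4904 lower, and by list from 0 to 13 and 0 to 9 (fatty acid synthesis), 0 to 22 and 0 to 5 (triglyceride and sebocyte), 0 to 11 and 0 to 3 (regulators), 0 to 16 higher (cholesterol), and 0 to 9 and 0 to 6 (ceramide). In each case the highest count came without Ctrl CLT 1 or Ctrl CLT 2.

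The sign of a few small, uncalled differences also changed. *Tm7sf2* in CLT went from -0.03 to 0.02 under median-of-ratios scaling, and with a library left out ranged from -0.09 to 0.03 in CLT and from -0.05 to 0.15 in CLH. With a library left out, the CLH differences ranged from -0.14 to 0.18 for *Hacd4*, from -0.16 to 0.20 for *Far1*, from -0.21 to 0.02 for *Krt79* and from -0.06 to 0.23 for *Cebpa*. At 0 to 1 reads of *Elovl3* and 13 to 47 reads of *Mc5r* per CLH library, differences of these genes in CLH could not be resolved at this depth. *Scd3* (22 to 32 reads) and *Fa2h* (26 to 42 reads) also had few reads there, so small differences of these could be missed.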
